A study of Mus musculus with 6 samples.

Results

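The mitochondrial carriers of the SLC25 family, with the mitochondrial pyruvate carrier subunits, were followed in mouse liver by RNA-seq. They were taken by gene symbol: the numbered Slc25a genes analysed here, the uncoupling proteins Ucp1, Ucp2 and Ucp3, the pyruvate carrier genes Mpc1 and Mpc2, and Mtch1 and Mtch2. This gave 50 of the 17441 genes in the deposited table. The livers came from 3 mice labelled WT and 3 labelled iKO, a whole-body knockout of Nek7 that tamoxifen induces. All 6 were collected 10 days after tamoxifen injection, so the WT livers were exposed to the drug too. Age, strain, sex, hour of collection and the Cre driver are not given in the sources used here, and the labels only number the livers within a group, so p-values measure the spread between these samples.

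The inner mitochondrial membrane is closed to most metabolites, and SLC25 proteins are the exchangers and uniporters that let them cross. Each is built from repeated pairs of membrane-spanning helices and usually swaps a substrate on the cytosolic side for another in the matrix. In hepatocytes they connect ATP export, gluconeogenesis, urea synthesis, lipogenesis and heme synthesis to the matrix enzymes. MPC1 and MPC2 belong to a separate family and form the pyruvate carrier together. MTCH1, MTCH2 and SLC25A46 carry the SLC25 fold but sit in the outer membrane.

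Several features of the libraries bear on every value below. Library totals ran from 18139507 to 19911983 expected counts (estimated read counts that need not be whole). Nek7, which encodes the kinase the label names, gave 55.5, 40.5 and 36.3 TMM-normalized CPM (counts scaled to a common library total) in the WT livers and 50.2, 32.8 and 31.0 CPM in livers labelled iKO. The groups overlapped (log2 fold change -0.22, SE 0.23, with an adjusted p = 0.541 from edgeR's quasi-likelihood fit), so the knockout livers are called "labelled iKO" throughout. A gene total does not show whether a deleted exon is missing. Y-linked Ddx3y and Kdm5d together were at 0 counts in WT 2 and WT 3 and above 10 in the other 4 libraries. This split lies almost along the labelled groups, with WT 1 as the WT library on the other side. Fold changes also followed transcript length, with a Spearman's rho of -0.35 across 12995 tested genes, which are not independent replicates. The scaling factor of iKO 1 was 0.780, the lowest, against 0.990 to 1.18 in the other 5, so CPM and TPM order that liver differently.

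Over all 6 livers the carrier transcripts most abundant per length were Slc25a39, Slc25a5, Mpc1, Slc25a47, Slc25a3 and Mpc2, while within WT livers Slc25a23 ranked above both Slc25a47 and Mpc2. All levels in this paragraph are TPM (scaled for transcript length and to a common total), which allow genes to be compared. Slc25a39, needed for glutathione in the matrix, had 402, 448 and 536 TPM in WT and 593, 619 and 642 TPM in the livers labelled iKO. Slc25a5, the main ADP/ATP exchanger of liver, had 481, 483 and 485 TPM in WT and 372, 507 and 515 TPM in those labelled iKO. In TPM the WT livers were almost equal for Slc25a5 and iKO 1 stood below the other 5, unlike in CPM (given below). Slc25a47, a liver-enriched carrier whose substrate is not settled, ranked between place 7 and place 9 of the 50 in WT livers and between place 1 and place 3 in those labelled iKO. Its share of the summed carrier TPM was 5.36% ± 1.39 in WT and 14.2% ± 2.69 in those labelled iKO (SD, n = 3 each). The sum over all 50 genes was 3642 ± 390 TPM in WT and 4072 ± 261 TPM in those labelled iKO (SD, n = 3 each). The ranges overlapped (3233 to 4010 against 3779 to 4282 TPM).

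**Figure D1:**
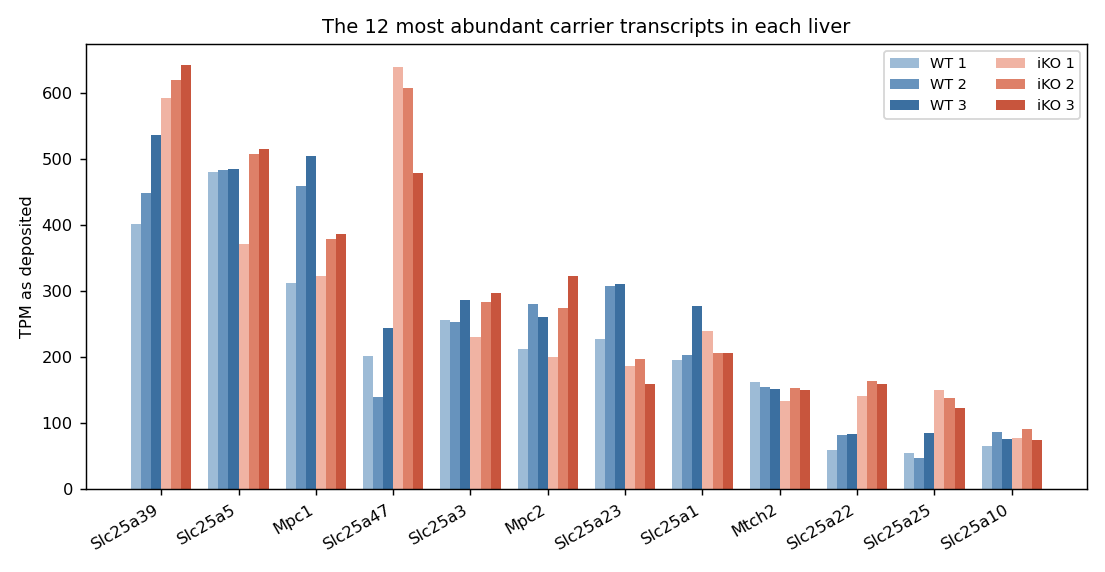
Deposited TPM (vertical axis, from 0) of the 12 most abundant carrier genes, with 1 bar per liver, WT in blue and livers labelled iKO in red. Slc25a47 stood at 139 to 244 TPM in WT and at 479 to 639 TPM in the livers labelled iKO. Slc25a5 and Slc25a3 overlapped between the groups in TPM.

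Of the 50 carriers, 43 had enough counts to be tested, and 9 passed an adjusted p of 0.05 over all 13160 tested genes, 7 of them higher in the livers labelled iKO and 2 lower. The higher ones described here are Slc25a47, Slc25a51, Slc25a25, Slc25a22, Slc25a32 and Slc25a38, and the lower ones are Slc25a48 and Slc25a35. The 9 are 20.9% of the tested carriers, beside 15.4% of all tested genes. By direction it is 16.3% higher beside 7.31% of all genes, and 4.65% lower beside 8.07%. In 17 of the 43 the groups did not overlap in any liver, which is 39.5% beside 39.0% of all tested genes. By direction, 32.6% of the carriers lay above WT in every liver labelled iKO, beside 19.8% of all tested genes, and 6.98% lay below, beside 19.2%. The median log2 fold change of the 43 was 0.17 beside -0.02 over all tested genes, with a median size of 0.32 beside 0.37. Except for Ucp1, the 7 carriers not tested (Slc25a2, Slc25a18, Slc25a31, Slc25a43, Slc25a53, Ucp1 and Ucp3) never exceeded 8.56 counts in a library.

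**Figure D2:**
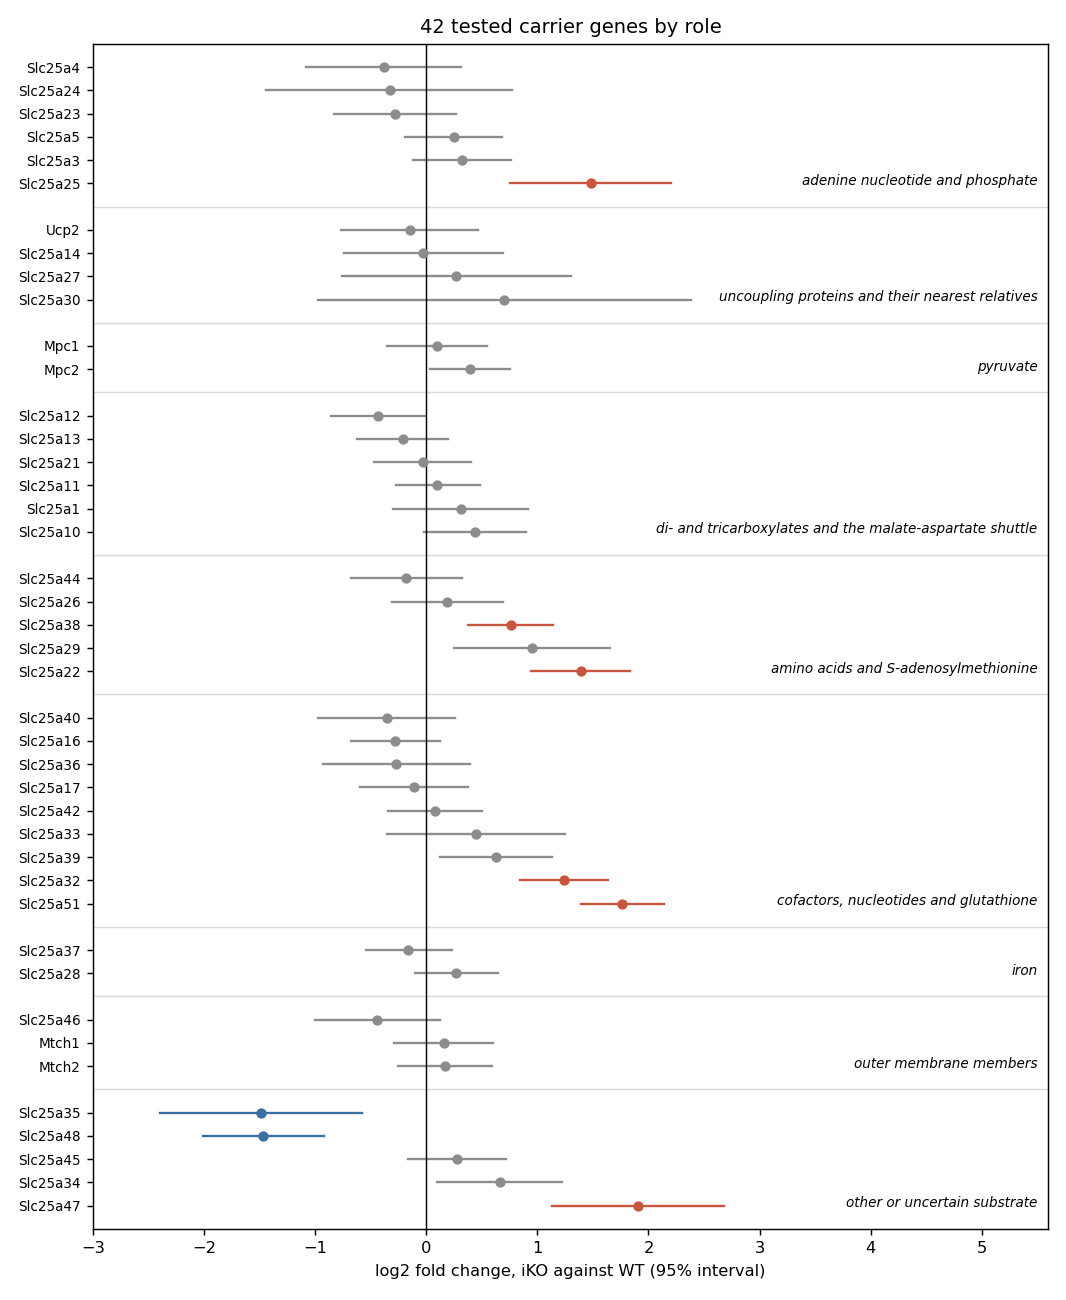
The log2 fold change of 42 tested carriers, iKO against WT (horizontal axis), with its 95% interval as a line, grouped by role. Red points passed adjusted p 0.05 as higher and blue points as lower, and grey points did not pass. Slc25a47 and Slc25a51 lie farthest to the right among the red points, and both blue points are in the group of uncertain substrate.

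**Figure D3:**
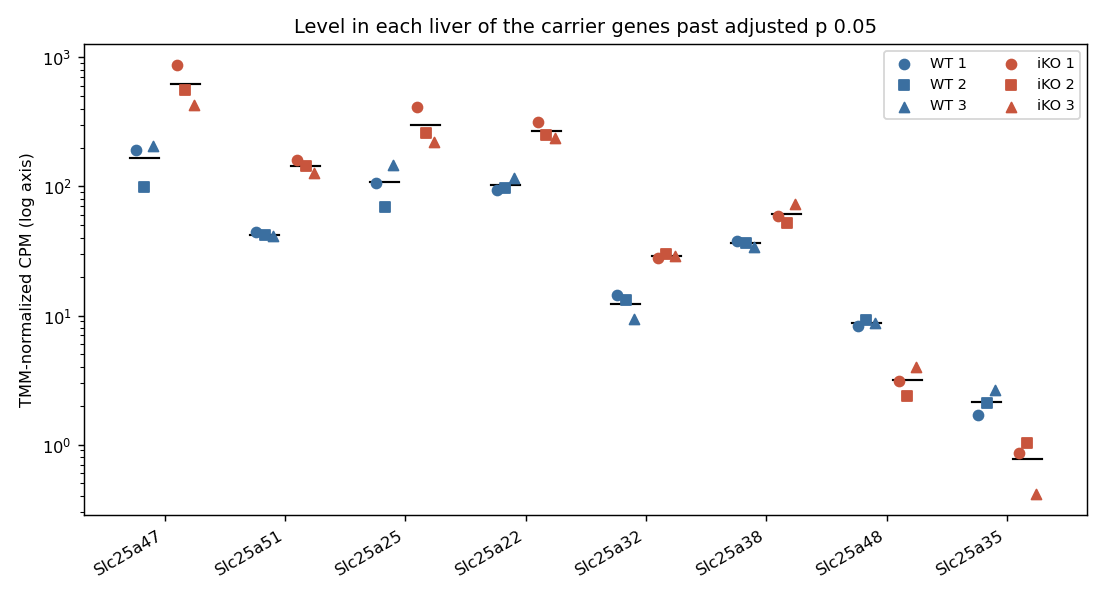
CPM on a log axis for 8 carriers that passed the test, with 1 point per liver (circle, square and triangle for livers 1, 2 and 3) and the group mean as a line. The groups are separate for each of these genes, and iKO 1 is the highest liver for Slc25a47, Slc25a51, Slc25a25 and Slc25a22.

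Among carriers of adenine nucleotides and phosphate, Slc25a25 rose and the other 5 tested genes did not pass the test. Slc25a25 (gene ID 227731) encodes a calcium-regulated exchanger of ATP-Mg for phosphate, which sets the adenine nucleotide content of the matrix. Its values were 106, 69.5 and 147 CPM in WT livers and 415, 259 and 222 CPM in livers labelled iKO. Every liver labelled iKO was above every WT liver, and the spread within each group was wide. The rise was 2.79-fold (log2 fold change 1.48, SE 0.32, with an adjusted p = 0.0187 from edgeR). Without WT 2 the adjusted p was 0.0628. Its calcium-regulated relative Slc25a23 was more abundant, at 463, 475 and 564 CPM in WT livers and 540, 392 and 305 CPM in livers labelled iKO (adjusted p = 0.456). On the TPM scale the Slc25a23 groups were separate (282 ± 47.7 against 181 ± 19.8 TPM, SD, n = 3 each), but the limma fit of log2(FPKM + 1) did not call it either (adjusted p = 0.0808). Slc25a24, another exchanger of this kind, was between 1.2 and 5.24 CPM in all 6 livers (adjusted p = 0.666). The phosphate carrier Slc25a3 supplies ATP synthase and had 228, 171 and 226 CPM in WT livers and 291, 244 and 246 CPM in livers labelled iKO (1.25-fold, separate groups, 95% interval of the log2 fold change -0.12 to 0.76, not called). Slc25a5 had 370, 280 and 331 CPM in WT livers and 410, 379 and 374 CPM in livers labelled iKO. On this scale its groups were separate and iKO 1 was the highest liver. Its log2 fold change was 0.25 (interval -0.19 to 0.68, not called). Slc25a4, the ADP/ATP exchanger of heart and muscle, had a log2 fold change of -0.38 at 2.46 to 6.43 CPM. Slc25a31, the testis form, never exceeded 1 count.

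The promoter of Slc25a25 is shown because, among the 5 called carriers with a promoter window, it alone matched any of the 7 motifs searched on both strands. The motif is the cAMP response element TGACGTCA, in capitals here. The second sequence is from Slc25a36, a pyrimidine nucleotide carrier that did not pass the test (log2 fold change -0.27, adjusted p = 0.548) and holds the same letters. Both are RefSeq sequences of build GRCm38.p6, minus strand, written 5′ to 3′ in the direction that the RefSeq table gives. Bases after the start site matched GENCODE transcripts in sense for Slc25a36 and were not found in them for this Slc25a25 start site.
Slc25a25, chr2:32424184-32424241, motif starting 150 bases before 1 of its 3 start sites: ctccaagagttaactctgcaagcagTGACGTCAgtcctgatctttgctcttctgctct
Slc25a36, chr9:97111170-97111227, motif starting 161 bases before its start site: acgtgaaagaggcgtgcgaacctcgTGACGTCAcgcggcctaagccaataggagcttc
Promoter windows of 250 bases before to 50 after a start site were found for 40 of the 50 carriers, among them 4 of the 7 that rose and 1 of the 2 that fell. TGACGTCA was in 2 of the 40 carriers (5%) and in 2.03% of all 27025 genes with such a window. The E-box CACGTG, the core letters bound by clock factors, was in 6 of the 40 (15%, beside 8.09% of all genes). These were Slc25a1, Slc25a13, Slc25a14, Slc25a31, Slc25a33 and Slc25a36. Slc25a31 was not tested, and none of the others passed the test. AAGGTCA, read by ROR receptors, was in Mtch2 and Slc25a34 (5% of carriers, 5.38% of all genes). The D-box TTATGTAA (1.11% of all genes), the direct repeat DR1, copies of AGGTCA 1 base apart (0.0481%), the NRF1 palindrome (1.07%) and the ERR motif TCAAGGTCA (0.466%), which contains AAGGTCA, were in 0 of the 40. A match or its absence here describes letters in a window and nothing about binding.

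Carriers of amino acids held 2 of the 7 genes that rose. Slc25a22 (gene ID 68267) encodes the main glutamate importer, coupled to protons. It had 93.1, 97.9 and 116 CPM in WT livers and 318, 250 and 236 CPM in livers labelled iKO. The lowest liver labelled iKO was above the highest WT liver by more than the whole WT range, a 2.61-fold rise (log2 fold change 1.39, SE 0.20, adjusted p = 0.00332). Slc25a38 (gene ID 208638) encodes the glycine importer that serves heme synthesis. Its level was 37.9, 36.6 and 33.9 CPM in WT livers and 58.9, 51.7 and 73.5 CPM in livers labelled iKO, a 1.70-fold rise (SE 0.17 on the log2 scale, adjusted p = 0.0194). It was no longer called when WT 2 (adjusted p = 0.0832), WT 3 (0.0670) or iKO 3 (0.0614) was left out, nor on log2(FPKM + 1) (log2 fold change 0.39, adjusted p = 0.232), and its TPM overlapped (21.2 to 25.8 against 20.3 to 38.9). Slc25a29, a carrier of basic amino acids, was separate in all livers at a low level (1.22, 2.00 and 2.37 against 3.93, 3.54 and 3.37 CPM) and did not pass (adjusted p = 0.0660). Slc25a44, which imports branched-chain amino acids, and Slc25a26, the S-adenosylmethionine carrier, had log2 fold changes of -0.18 and 0.19. Slc25a18, the other glutamate carrier coupled to protons, had at most 6 counts in a library. Of this pair, Slc25a22 was therefore the transcript measured in these livers.

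Carriers of cofactors, nucleotides and glutathione included Slc25a51, the carrier with the smallest p of the whole set. Slc25a51 (gene ID 230125) encodes the importer of NAD+ into the matrix. It stood at 44.0, 42.0 and 41.1 CPM in WT livers and at 161, 143 and 128 CPM in livers labelled iKO. Both groups were tight, and the rise was 3.39-fold (log2 fold change 1.76, SE 0.17, adjusted p = 0.000549). Slc25a32 (gene ID 69906) encodes a carrier linked to folate and FAD. Its 14.3, 13.1 and 9.47 CPM in WT compared with 28.0, 30 and 28.8 CPM in livers labelled iKO, a 2.36-fold rise (log2 fold change 1.24, SE 0.18, adjusted p = 0.00354). Slc25a39 had 367, 311 and 434 CPM in WT livers and 690, 538 and 490 CPM in livers labelled iKO. Its groups were separate, yet it did not pass (1.54-fold, adjusted p = 0.0849), while DESeq2 (adjusted p = 0.0258) and the limma fit of log2(FPKM + 1) (0.0467) called it. Slc25a40, the close relative of Slc25a39, was at 2.26 to 3.93 CPM with a log2 fold change of -0.35 (adjusted p = 0.403). Others of this group were Slc25a42, which imports coenzyme A, Slc25a16, the peroxisomal carrier Slc25a17, and the pyrimidine nucleotide carriers Slc25a33 and Slc25a36. Their log2 fold changes lay between -0.28 and 0.45, and none passed.

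Carriers of uncertain substrate held both falls and the largest rise. Slc25a47 (gene ID 104910) had 191, 98.9 and 204 CPM in WT livers and 866, 559 and 427 CPM in livers labelled iKO. The lowest liver labelled iKO had more than the highest WT liver by over the WT range, and the rise was 3.75-fold (log2 fold change 1.91, SE 0.35, adjusted p = 0.00961). Slc25a48 (gene ID 328258), a carrier linked to choline, fell from 8.28, 9.28 and 8.70 CPM to 3.13, 2.36 and 3.99 CPM. The WT livers were close together, and the level in those labelled iKO was 2.76-fold lower (log2 fold change -1.47, SE 0.24, adjusted p = 0.00647). Slc25a35 (gene ID 71998) fell from 1.70, 2.09 and 2.66 CPM to 0.866, 1.02 and 0.415 CPM (log2 fold change -1.49, SE 0.41, adjusted p = 0.0384). It rested on 8 to 55 counts a library and held only without WT 1 among the 6 leave-one-out fits (adjusted p up to 0.131, without WT 2). Its nearest relative Slc25a34 went the other way in value, 4.62, 5.15 and 3.96 CPM against 7.66, 8.85 and 5.24 CPM, and did not pass (adjusted p = 0.1). Slc25a45 had a log2 fold change of 0.28.

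The carriers at the centre of gluconeogenesis and lipogenesis showed no call. Mpc1 had 178, 197 and 250 CPM in WT livers and 256, 208 and 206 CPM in livers labelled iKO, overlapping groups with a log2 fold change of 0.10 (95% interval -0.35 to 0.55). Mpc2 had 99.1, 99.2 and 108 CPM against 135, 125 and 143 CPM, separate groups that did not pass (log2 fold change 0.39, adjusted p = 0.121). With an offset for transcript length its log2 fold change was -0.06, and Mpc2 lies in the shortest 3.54% of tested transcripts. The malate-aspartate shuttle exchanger of liver, Slc25a13 or citrin, had a log2 fold change of -0.21 (interval -0.62 to 0.20). Its muscle and brain relative Slc25a12 was lower in every liver labelled iKO (14.3, 13.4 and 17 against 10.5, 13.3 and 9.23 CPM) and did not pass (adjusted p = 0.143). The citrate exporter Slc25a1, which feeds lipogenesis, had 197, 154 and 248 CPM against 344, 202 and 196 CPM (adjusted p = 0.459). The dicarboxylate carrier Slc25a10 was at a log2 fold change of 0.44 (interval -0.02 to 0.90), the oxoglutarate carrier Slc25a11 at 0.10 and the oxodicarboxylate carrier Slc25a21 at -0.03. Of the 8 genes for pyruvate and for di- and tricarboxylates, edgeR, DESeq2 and limma-voom called 0, and Mpc2 and Slc25a12 had an unadjusted p under 0.05. By edgeR 15.4% of all tested genes were called, a share at which 8 genes can easily hold 0 calls.

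Among 9 tested genes for uncoupling proteins and their relatives, iron carriers and outer membrane members, edgeR, DESeq2 and limma-voom likewise gave 0 calls. With 15.4% of all tested genes called by edgeR, 9 genes can easily hold 0 calls too. By edgeR, 0 of the 9 had an unadjusted p under 0.05. Ucp1 and Ucp3 are not among the 9, since the main test did not include them. Ucp2, the uncoupling protein relative known from macrophages, had 30.1, 50.4 and 71.0 CPM in WT livers and 51.3, 42.8 and 42.1 CPM in livers labelled iKO (adjusted p = 0.733). Of 8 tested Kupffer cell and macrophage markers 6 fell, beside 8.07% of all tested genes called lower. Their summed level was 205 to 437 TPM in WT and 105 to 168 TPM in those labelled iKO. The part of these cells in the Ucp2 level was not tested, and in whole liver fewer cells of a type cannot be told apart from less RNA per cell. Slc25a30 spread most of all tested carriers, with 10.7, 5.59 and 5.27 CPM in WT livers and 19.5, 12.9 and 2.80 CPM in livers labelled iKO (SE 0.68 on the log2 scale). Slc25a14 and Slc25a27, relatives of the uncoupling proteins found mainly in brain, had 1.26 to 1.86 CPM and 1.73 to 6.22 CPM. The mitoferrins, which import iron, had log2 fold changes of 0.27 (Slc25a28) and -0.16 (Slc25a37, the erythroid form). The summed level of 5 erythroid markers was 338 to 441 TPM in WT and 212 to 794 TPM in those labelled iKO, and its part in Slc25a37 was not tested. Mtch1, Mtch2 (an insertase of the outer membrane) and Slc25a46 had log2 fold changes of 0.16, 0.17 and -0.44.

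Ucp1, the brown fat uncoupling protein, was read in livers labelled iKO only. It gave 0 counts in each WT library, which allows up to 0.159, 0.133 and 0.145 CPM (3 counts a library, counting error only), and 58, 28 and 1 counts in iKO 1, iKO 2 and iKO 3. The value of iKO 3 lies within what the WT floors allow. Ucp1 was below the count filter of the main test. No test of it is given, since a looser filter keeps it only through iKO 1 and iKO 2. The brown fat gene Cidea stood at 0, 0.133 and 0.0967 CPM in WT livers and at 1.27, 0.965 and 0.207 CPM in livers labelled iKO. Of the other fat markers, Adipoq was at 0 to 0.107 CPM, Plin1 at 0 to 0.400 CPM and Fabp4 at 2.44 to 6 CPM. Elovl3, which liver also expresses, ran from 2.33 to 407 CPM with WT 1 and iKO 1 highest. The summed level of these 5 markers was 15.1 to 370 TPM in WT and 9.20 to 110 TPM in those labelled iKO. The part of fat tissue in the Ucp1 counts was not tested. Ucp3 gave 0, 2 and 1 counts in those labelled iKO and 0 in WT.

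Related pairs of carriers were compared as TPM ratios within each liver. The test used log2 ratios with 0.1 TPM added to each gene, and 3 against 3 livers allow no p below 0.1 (exact permutation test, two-sided), so no pair could pass 0.05. Of 10 pairs, 4 reached that p (adjusted p = 0.250), and the plain ratios of 2 of these were separate between the groups. The ratio of Slc25a39 to Slc25a40 was 170, 167 and 259 in WT and 617, 288 and 414 in the livers labelled iKO. For Slc25a34 over Slc25a35 it was 1.79, 1.43 and 0.962 against 4.88, 4.86 and 6.82. The plain ratio of Slc25a24 to Slc25a25 was 0.0212, 0.0567 and 0.0321 in WT and 0.00267, 0.00964 and 0.0220 in livers labelled iKO, where WT 1 lies just below iKO 3. The plain ratios of Slc25a18 to Slc25a22 overlapped too and rested on at most 6 counts of Slc25a18. Slc25a13 exceeded Slc25a12 and Slc25a5 exceeded Slc25a4 in all 6 livers, with overlapping ratios. The ratio of Mpc1 to Mpc2, partners in 1 complex, was 1.48, 1.63 and 1.94 in WT and 1.60, 1.38 and 1.19 in those labelled iKO.

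The direction of all 9 calls held in each of the 17 alternative fits, and their significance did not. The groups were separate in CPM for all 9, so leaving out libraries could hardly reverse a direction. Slc25a51, Slc25a47, Slc25a22, Slc25a32 and Slc25a48 passed whichever library was left out, with the highest adjusted p always without WT 2 (0.00455, 0.0329, 0.0233, 0.0178 and 0.0389). When the fit had a Y-linked term, which leaves WT 1 as the WT library of its kind, Slc25a51 alone passed (log2 fold change 1.71, adjusted p = 0.0260). In that fit 1.40% of all tested genes were called. The sizes there were 1.69 for Slc25a47, 1.52 for Slc25a22, 1.5 for Slc25a25, 1.02 for Slc25a32 and -1.39 for Slc25a48. In the 4 libraries with Y-linked reads, 1 of them WT, the median log2 fold change of carriers was 0.21, beside 0.02 over all genes tested there. An offset for transcript length kept all 9 calls. On log2(FPKM + 1), which understates changes of low genes, Slc25a32 was at 0.71 and Slc25a35 at -0.68, both called. With 0.1 added in place of 1 they were at 0.89 and -1.37, both called, beside 1.24 and -1.49 in the main fit. The smaller addition thus did not bring Slc25a32 back to its size in the main fit, and what else lowered it was not tested. Expected counts of Slc25a51, Slc25a32 and Slc25a38 were fractional in 6 libraries and those of Slc25a25 in 5, so RSEM may have divided their reads with similar sequences and these levels are less certain.

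**Figure D4:**
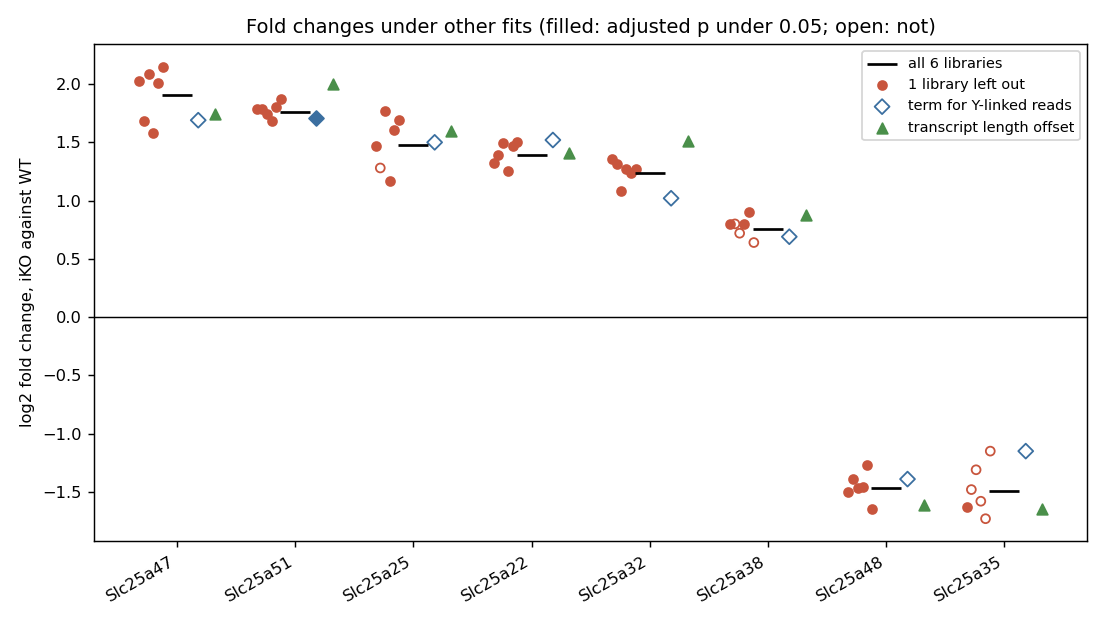
The log2 fold change of 8 called carriers (vertical axis) with all libraries (black bar), with each library left out in turn (circles), with the Y-linked term (diamonds) and with an offset for transcript length (triangles). Filled symbols passed adjusted p 0.05. No symbol crosses 0, and Slc25a51 has the only filled diamond.

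Genes that work beside the carriers were read from lists chosen with earlier results of these data known. Of the 64 tested list genes 6 were called higher and 4 lower, beside 7.31% higher and 8.07% lower of all tested genes. A count of 1 or 2 calls in a list below is near these shares. Of 16 genes for carrier import through the TOM and TIM22 complexes, 4 rose: Timm10 (1.92-fold, adjusted p = 0.0299), Tomm6 (1.70-fold, 0.0493), Tomm7 (1.57-fold, 0.0382) and Tomm22 (1.53-fold, 0.0474). Their transcripts are short (median length percentile 9.30), and with the length offset all 4 calls ended (adjusted p 0.188 to 0.342) and the list's median log2 fold change went from 0.55 to 0.26. None of the 4 calls held in more than 3 of the 6 fits that left out 1 library. Without WT 2 all 4 ended (adjusted p 0.105 to 0.190).

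Of 18 metabolic enzymes that share substrates with the carriers, Got1 rose and Acly fell. Got1, the cytosolic aspartate aminotransferase of the malate-aspartate shuttle, had 144, 219 and 241 CPM in WT livers and 636, 629 and 636 CPM in livers labelled iKO. This 3.15-fold rise (adjusted p = 0.00332) held in every alternative fit, the Y-linked term included (adjusted p = 0.0194), while the mitochondrial Got2 had a log2 fold change of 0.19. Acly, which cleaves exported citrate for lipogenesis, was 2.38-fold lower (284, 278 and 671 against 211, 170 and 138 CPM, adjusted p = 0.0469). WT 3 was far above the other livers, and the call held only without WT 1 among the leave-one-out fits (adjusted p up to 0.122).

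Among 19 other tested mitochondrial transport proteins, Mcu and Sfxn5 fell. Mcu, the pore of the calcium uniporter, went from 33.2, 37.3 and 33.9 CPM to 23.4, 13.9 and 15.0 CPM (2.00-fold lower, adjusted p = 0.0149, or 0.0774 without WT 2 and 0.0644 without iKO 3). Sfxn5, a sideroflexin, was 1.61-fold lower (adjusted p = 0.0246), a call that ended without WT 2 (0.133), iKO 1 (0.0512) or iKO 2 (0.0704) and with the length offset (0.0638). Of 11 regulators of mitochondrial gene expression, Pprc1, a coactivator related to PGC-1alpha, rose 3.91-fold from 9.88, 8.61 and 7.30 CPM to 41.8, 31.3 and 27.9 CPM (adjusted p = 0.000741). Thra, a thyroid hormone receptor, fell 1.69-fold (adjusted p = 0.0272). That call ended when WT 2 (0.122), WT 3 (0.0724), iKO 2 (0.0674) or iKO 3 (0.0892) was omitted and with the length offset (0.0678), while Ppargc1a had a log2 fold change of 0.66 and did not pass (adjusted p = 0.171).

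Markers of other liver cells also differed between the groups. Of 9 stellate cell and fibroblast markers 6 fell, with a summed level of 178 to 363 TPM in WT and 65.3 to 116 TPM in the livers labelled iKO. Among 7 sinusoidal endothelial markers 3 fell, with sums that nearly met (71.1 to 158 against 30.8 to 70.8 TPM). Among 8 neutrophil markers 5 fell, with overlapping sums (71.0 to 346 against 34.5 to 125 TPM). Beside these counts, 8.07% of all tested genes were called lower. For the stellate, endothelial, neutrophil and Kupffer cell markers alike, WT 1 gave the lowest WT sum. WT 1 is the WT library with Y-linked reads. These marker calls come from the fit of all 6 libraries, without the Y-linked term. Of 7 hepatocyte markers Tat and Hnf4a rose, beside 7.31% of all tested genes called higher. Their summed level overlapped (92049 to 136111 against 87003 to 106236 TPM). Cholangiocyte markers (128 to 296 against 54.6 to 501 TPM) and T and B cell markers (7.22 to 11.8 against 6.46 to 9.41 TPM) overlapped. The part of cell composition in the carrier values was not tested. Myh6 and Myl2, defining genes of heart muscle, were at 0 in all 6 livers. Of the other muscle markers, Tnnt2 was at 0.0519 to 0.429 CPM. Acta1 was at 0 to 0.0483 CPM in WT livers and at 0, 0.107 and 2.70 CPM in iKO 1, iKO 2 and iKO 3. The part of muscle tissue in these values was not tested.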

How the data were processed

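RNA-seq of 6 mouse livers was analysed from 1 table of 17441 genes. The submitters' processing notes name build mm9 and the tools RSEM 1.2.12, Bowtie2 2.2.5 and HISAT2 2.0.4. The authors deposited expected counts, FPKM (scaled by library size and length) and TPM (scaled to a common total). The sources used here do not say whether counting used strand. Genes carry no coordinates in the table. Promoters came from RefSeq on GRCm38.p6, matched by gene ID.

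Rounded expected counts were fitted in R 4.3.3 by edgeR 4.0.16 (TMM factors after filterByExpr, quasi-likelihood F test with robust=TRUE), with Benjamini-Hochberg adjustment over all 13160 tested genes, threshold 0.05. CPM are TMM-normalized, and each SE divides a gene's log2 fold change by the root of its F statistic. Alternatives used DESeq2 1.42.0 and limma 3.58.1 (voom, or log2 FPKM with a pseudocount of 1 or 0.1), RLE and upper-quartile factors, no filter, a replicate block, each library left out, a term for Y-linked reads (Ddx3y plus Kdm5d over 10 counts), and a length offset (lowess, span 0.3; lengths from counts over FPKM of at least 0.2). The fit was tested on simulated data. Every pair of libraries differed by more than sampling noise. Floors of 3 counts cover counting error only, while the 95% intervals come from the fit and include the spread between livers.

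The members and lists were chosen with earlier results of these data known. A carrier that is counted among the calls is not reported here by name. Genes named by rule are otherwise the called carriers, the 6 most abundant and the pairs of called carriers, and up to 4 called genes of each other list. Of these, Slc25a18, Slc25a24 and the called list genes other than Got1, Acly, Mcu and Pprc1 are given without every CPM value. Slc25a12, Slc25a23, Slc25a29, Slc25a30, Slc25a1, Ucp1, Ucp2, Ucp3, Got2, Ppargc1a, Cidea and the marker genes were named after their values were seen.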

Additional observations from a re-analysis of the deposited data

How the results depend on the processing

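The counts of 7 higher and 2 lower carriers were the same with RLE or upper-quartile factors, no filter, limma-voom and the length offset. Leaving out 1 library gave 4 to 7 higher and 1 to 2 lower carriers, 2 to 9 higher and 0 to 4 lower genes of the other lists (6 and 4 with all libraries), and a carrier median of 0.07 to 0.25. The term for Y-linked reads gave 1 higher and 0 lower carriers (10 at an unadjusted p under 0.05) and 2 higher and 0 lower list genes (7). The libraries with Y-linked reads alone, 1 of them WT, gave a carrier median of 0.21. With whole expected counts required in every library, 3 higher carriers remained. Carrier medians were 0.03 on log2(FPKM + 1) and 0.03 on log2(FPKM + 0.1), with 3 higher list genes in each, and 0.04 with the length offset, which left 1 lower list gene. Over all tested genes the split of 962 higher and 1062 lower became 421 and 931 on log2(FPKM + 1) and 427 and 926 on log2(FPKM + 0.1), where the median gene moved from -0.02 to -0.12 and -0.20. Leaving out WT 2 reduced these 2024 calls to 491, WT 3 to 908 and iKO 3 to 946. DESeq2 gave 13 higher list genes and added Slc25a29 and Slc25a39 to the 7 higher carriers. Ucp1 is left out of this account, since it enters that fit only through iKO 1 and iKO 2. Both FPKM fits gave 6 higher and 2 lower carriers, with Slc25a38 among the calls lost and Slc25a39 gained. The replicate block gave 1 lower carrier, since Slc25a35 did not pass (adjusted p = 0.0563), and 7 higher. The replicate numbers were not taken as pairs: deviations of same-numbered livers correlated at 0.20, 0.25 and 0.04, and WT 2 correlated best with iKO 3 (0.37).

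No called carrier changed direction in any fit, which their separate groups made likely beforehand. Mpc1 turned to -0.07 in both FPKM fits, -0.28 with the length offset and 0.00 without iKO 1, and Mpc2 to -0.06 with the length offset. Slc25a24 turned to 0.04 without iKO 1 (leaving out 1 library gave -0.95 to 0.04), 0.36 with the Y-linked term and 0.36 in the libraries with Y-linked reads. Nek7 turned to 0.02 with the length offset. The causes were not tested. Of the 272 alternative values of 16 carriers, 225 kept direction and side of the threshold, 36 lost the call and 3 gained it. Depth limits carriers near 1 CPM, such as Slc25a35.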
